A study of Saccharomyces cerevisiae with 17 samples.

Results

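The 58 genes described here encode assembly factors of the large (60S) ribosomal subunit of budding yeast, Saccharomyces cerevisiae: proteins that build the subunit in the nucleolus, nucleus and cytoplasm without staying in the finished ribosome. They were chosen by name from textbook knowledge of the pathway, but with earlier results of these data known. All 58 were found among the 7126 features of the count table. All 58 were among the 6195 features with enough counts to be tested, and the lowest count of any member in any library was 52, for SYO1 in 1 library. Poly(A)-selected RNA was sequenced in 17 libraries from mating type a cells of 1 strain, BY25598. This strain carries XRN1-AID, a degron on the main cytoplasmic exonuclease of mRNA decay, together with the plant receptor OsTIR1 behind the ADH1 promoter and the alleles trp1-1, can1-100 and ade2-1 beside mutant alleles of HIS3 and LEU2. Log-phase cells in rich medium at 30 degrees received 500 µM auxin for 30 min (Xrn1-AID arm) or no auxin (Xrn1-WT arm), and were sampled without NaCl (0 min) and after 10 and 30 min in 0.4 M NaCl. There were 3 libraries in each of the 6 groups, but 2 for Xrn1-AID at 30 min. Both arms carried the tagged gene and the receptor, so auxin itself and loss of Xrn1 cannot be told apart.

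Ribosome assembly starts on a long ribosomal RNA precursor made by RNA polymerase I. Part of the large subunit assembly factors bind early in the nucleolus, where helicases and methyltransferases act on the folding RNA, while others load the 5S RNA particle, trim the internal spacer ITS2, drive remodelling with energy from ATP or GTP, or accompany the particle through the nuclear pore and are released in the cytoplasm. In yeast these genes belong to the ribosome biogenesis regulon, which is expressed in growing cells and shut down under stress. Its promoters are known for 2 short elements, PAC, bound by the repressors Dot6 and Tod6, and RRPE, bound by the repressor Stb3, while Sfp1 is an activator of the regulon.

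The promoters of the members held these elements more often than protein-coding genes at large. Windows of 250 bases before the start codon were read from the RefSeq R64 (sacCer3) genome and searched on both strands for PAC (GCGATGAG) and RRPE (AAAAATTTT). The letters of the 2 motifs do not overlap by themselves, although neighbouring copies in a promoter can share bases. PAC was present in 37 of 58 members (63.8%) and in 230 of 6002 protein-coding genes (3.83%). RRPE was present in 42 members (72.4%) and in 6.73% of all windows, and 25 members (43.1%) held both, against 1.62%. Among 59 genes of the small subunit processome, which assembles the other subunit, 50.8% held PAC, 62.7% RRPE and 33.9% both. Among 19 genes for subunits of RNA polymerases I and III these shares were 31.6%, 63.2% and 21.1%. The 4 members with neither exact motif were NOC3, NOP4, URB2 and RRP15. Allowing the shorter letters GATGAG or AAAATTTT found a match in all 58 members, but also in 21.6% of all windows. The nearest PAC lay at a median of 116 bases before the start codon (range 41 to 200, 37 members) and the nearest RRPE at 131 (29 to 214, 42 members). PAC was the nearer of the pair in 19 of the 25 members with both.

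Shown first, on the strand of the gene from 5′ to 3′ with PAC and RRPE matches in capitals and 20 flanking bases, are the promoter stretches of the 5 members with the largest falls after 30 min of salt.

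NOP7, chrVII:695256-695340, plus strand: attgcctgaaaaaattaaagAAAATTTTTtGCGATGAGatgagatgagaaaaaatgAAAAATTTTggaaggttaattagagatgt

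SYO1, chrIV:340300-340348, minus strand: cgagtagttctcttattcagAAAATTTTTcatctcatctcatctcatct

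DBP2, chrXIV:413464-413522, plus strand: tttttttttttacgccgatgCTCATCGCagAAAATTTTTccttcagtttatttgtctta

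SDA1, chrVII:982186-982233, minus strand: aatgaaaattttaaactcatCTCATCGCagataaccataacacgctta

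YTM1, chrXV:832623-832703, plus strand: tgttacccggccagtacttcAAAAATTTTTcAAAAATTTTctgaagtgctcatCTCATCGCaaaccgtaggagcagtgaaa

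In NOP7 a PAC stood beside RRPE copies, and YTM1 held 3 RRPE matches before its PAC, of which the first pair overlap on opposite strands. SYO1 held RRPE alone and SDA1 PAC alone, so by the exact letters these members did not share the same elements. By the shorter letters the promoters of both held both elements. The next 4 stretches belong to members with most of their fall in Xrn1-WT present at 10 min.

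ALB1, chrX:189571-189627, plus strand: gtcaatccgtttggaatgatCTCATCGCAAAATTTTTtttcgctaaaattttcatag

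SPB1, chrIII:31295-31344, plus strand: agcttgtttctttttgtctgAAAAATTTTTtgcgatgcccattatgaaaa

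DBP7, chrXI:487486-487533, minus strand: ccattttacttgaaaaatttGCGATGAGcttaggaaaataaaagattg

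RRP14, chrXI:282465-282513, minus strand: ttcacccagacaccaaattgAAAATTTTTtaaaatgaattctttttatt

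The last 3 belong to the member with the smallest fall, TIF6, and to a pair of members, RIX1 and LOC1, whose fall differed between the arms.

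TIF6, chrXVI:593238-593286, minus strand: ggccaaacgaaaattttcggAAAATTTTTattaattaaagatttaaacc

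RIX1, chrVIII:493764-493812, plus strand: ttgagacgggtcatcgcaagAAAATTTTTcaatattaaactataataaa

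LOC1, chrVI:148969-149016, plus strand: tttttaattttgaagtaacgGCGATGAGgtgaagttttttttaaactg

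The libraries held 13.9 to 30.4 M counts. Markers of mating type a were present throughout (MFA1 18.6 to 51.5 counts per M of the library total), while MF(ALPHA)1 and MF(ALPHA)2 stayed at or below 0.484 on that scale. Below, CPM stands for counts per M after TMM scaling. Library WT 0 replicate 3 stood apart: it was the deepest and had the lowest level of its group for 33 members and the highest for 21. WT 0 replicate 1 held 17.9 CPM of the salt-induced transporter gene STL1, against 1.6 and 2.29 in its group. WT 10 replicate 1 was the highest of its group for 51 members, and WT 30 replicate 1 the lowest of its group for 50. In several libraries the members' deviations from their group mean went with coding length (Pearson r over 58 members between log2 coding length and log2 deviation, −0.79 in WT 10 replicate 2 and 0.63 in WT 10 replicate 3). Results with each library corrected for GC content and coding length are given below as an alternative, but the size of this part was not tested. Nothing in the labels ties replicates to separate cultures, and p-values therefore measure the spread between these samples, which may be technical. Levels are relative to all RNA in a library, so a change in the total mRNA of the cells cannot be seen in them.

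Together the members made up 1.05% ± 0.262 (SD, n = 3) of all counts in unstressed Xrn1-WT cells, 0.417% ± 0.114 after 10 min and 0.162% ± 0.0248 after 30 min of NaCl. In Xrn1-AID the shares were 0.856% ± 0.0523, 0.414% ± 0.0242 (n = 3 each) and 0.19% ± 0.0127 (n = 2). Per kb of coding length, the mean level in unstressed Xrn1-WT ranged from 9.54 CPM per kb for REA1, the giant AAA-type ATPase that pulls factors off the particle, to 439 ± 19 for TIF6, whose product keeps unfinished 60S subunits from joining 40S. MRT4, which holds the place of the ribosomal stalk protein P0, followed with 434 ± 42.1 and did not differ from TIF6 beyond its spread, and ALB1 with 387 ± 64.8 overlapped it too. Among the members TIF6 had the highest mean level per kb in each of the 6 groups. The median over the members was 121 CPM per kb at 0 min and 11 at 30 min in Xrn1-WT.

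**Figure D1:**
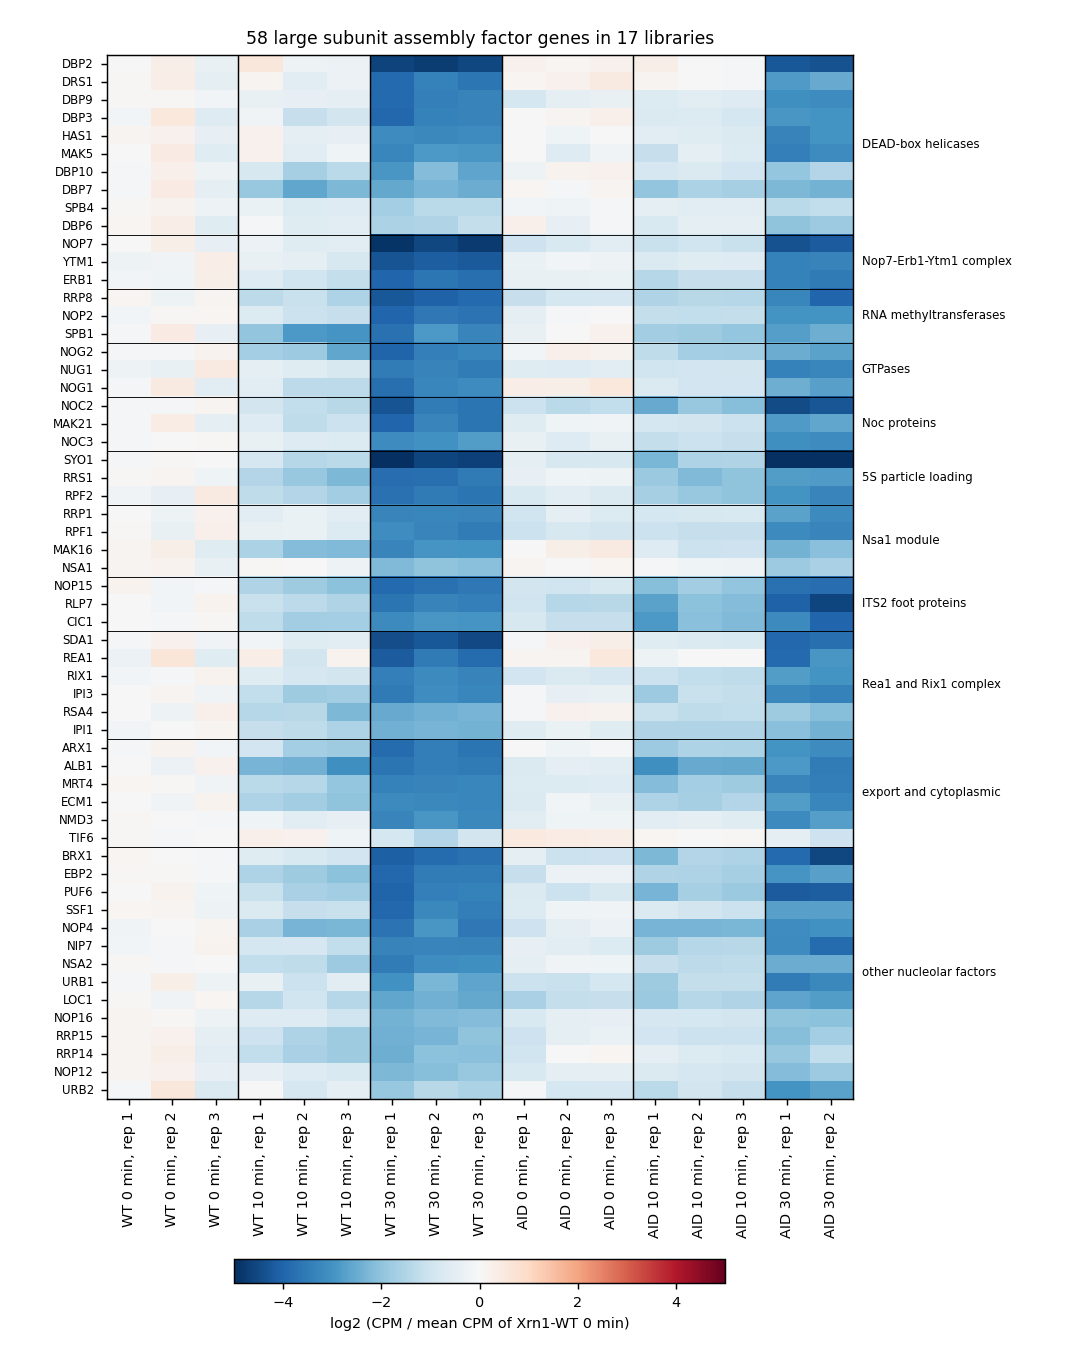
Level of each of the 58 members (rows, grouped by role) in each of the 17 libraries (columns, arm, minutes of NaCl and replicate) as log2 of CPM over the mean CPM of the 3 unstressed Xrn1-WT libraries. Blue deepens from 10 to 30 min in both arms, and TIF6 is palest at 30 min in Xrn1-WT, with 47.8% of its unstressed level left.

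The question of the early comparison was what salt does within 10 min while Xrn1 is present. Most members fell: 48 of 58 were called lower and none higher (edgeR quasi-likelihood test, Benjamini-Hochberg adjusted p under 0.05), where 24.6% of all 6195 tested features were called lower and 19.7% higher. The median log2 fold change of the members was −0.97 (range −2.56 to 0.10), against −0.06 over all tested features. The libraries of the 2 groups did not overlap for 44 members on the lower side, against 25.8% of all features.

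ALB1, SPB1 and DBP7 fell most in this first interval. ALB1 (YJL122W), which encodes a partner of the export factor Arx1, stood at 209, 168 and 236 CPM before salt and at 41.1, 38.1 and 24.6 CPM after 10 min. The groups lay far apart, and the log2 fold change was −2.56 ± 0.22 (SE; adjusted p = 1.26e-07). SPB1 (YCL054W), a methyltransferase of the large subunit RNA, went from 131, 184 and 104 CPM to 35.4, 19.2 and 17.9 CPM. Its log2 fold change was −2.53 ± 0.29 (edgeR adjusted p = 2.93e-06), with WT 10 replicate 1 the highest of the later libraries. DBP7 (YKR024C), a DEAD-box helicase of early particles, went from 51, 70.4 and 38.8 CPM to 14.4, 8.91 and 11.4 CPM. This was a log2 fold change of −2.20 ± 0.22 (edgeR adjusted p = 5.57e-07), again without overlap.

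The role classes differed in how many members had fallen by 10 min. All members of several small classes were called lower: the 5S loading factors RPF2, RRS1 and SYO1 (median log2 fold change −1.46), the ITS2 proteins CIC1, RLP7 and NOP15 (−1.55), the methyltransferases NOP2, SPB1 and RRP8 (−1.31), the GTPases NOG1, NOG2 and NUG1 (−1.02), the Noc proteins (−0.97) and the Nop7-Erb1-Ytm1 complex (−0.54). The classes of export and cytoplasmic factors (5 of 6, median −1.49), of Rea1 and the Rix1 complex (5 of 6, −1.05), of the Nsa1 module (3 of 4, −0.45) and of other nucleolar factors (13 of 14, −1.12) each had 1 member that did not pass. Of the 10 DEAD-box helicase genes, 4 were called lower (median −0.41). No test of a difference between classes was made.

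The 10 members that did not pass at 10 min in Xrn1-WT were DBP2, DBP3, DBP6, HAS1, DRS1, MAK5, NSA1, REA1, TIF6 and URB2, the first 6 of them helicases. DBP2 (YNL112W), an abundant DEAD-box helicase of nuclear RNA-protein complexes, stood at 343, 415 and 265 CPM before salt and at 501, 286 and 280 CPM after 10 min. The groups overlapped (log2 fold change 0.06 ± 0.21, edgeR adjusted p = 0.837). REA1 stood at 115, 214 and 92.5 CPM before salt and ranged from 74.6 to 178 CPM within the 10 min group, so its groups overlapped, with a log2 fold change of −0.03 ± 0.33 (edgeR adjusted p = 0.946). For HAS1 and DRS1, helicases of the middle nucleolar steps, the log2 fold changes were −0.19 ± 0.18 and −0.22 ± 0.21. Across the 58 members the early change had a Pearson correlation of 0.32 with log2 coding length, a description over genes measured in the same libraries. With each library corrected for GC content and coding length, an alternative added after the data were seen, 44 members were called lower.

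After 30 min all 58 members were lower in Xrn1-WT, and none of their libraries overlapped with those of 0 min. In this comparison 27.5% of all features were called lower and 29.1% higher by the same edgeR test, and 28.8% did not overlap on the lower side. The members' median log2 fold change was −3.32 (range −4.74 to −1.07), against 0.01 over all features. At the median a member kept 9.99% of its unstressed level. More than 8-fold falls were called for 41 members, beside 137 of all 6195 features.

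NOP7, SYO1 and DBP2 fell furthest. NOP7 (YGR103W), the scaffold of the complex with Erb1 and Ytm1 that is needed to process ITS2, stood at 380, 462 and 279 CPM before salt and at 12.4, 16 and 13.6 CPM after 30 min. The log2 fold change was −4.74 ± 0.21 (26.7-fold lower, edgeR adjusted p = 4e-11). SYO1 (YDL063C), the chaperone that imports the 5S-binding proteins Rpl5 and Rpl11 together, went from 92.1, 101 and 95.5 CPM to 3.05, 4.01 and 3.75 CPM. Its log2 fold change was −4.73 ± 0.24 (edgeR adjusted p = 1.4e-10). DBP2, which had not passed at 10 min, was down to 13.6, 12.7 and 14.7 CPM, a log2 fold change of −4.64 ± 0.24 (edgeR adjusted p = 1.85e-10). The spread among its 3 late libraries was small beside the gap to every earlier library.

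The leading member of each further class fell as well. SDA1 (YGR245C), a nuclear factor acting with Rea1 and the Rix1 complex, went from 155, 188 and 145 CPM to 7.57, 8.71 and 7.18 CPM (log2 fold change −4.38 ± 0.18, edgeR adjusted p = 2.64e-11). RRP8 (YDR083W), a methyltransferase of the 25S RNA, went from 156, 122 and 163 CPM to 7.76, 8.87 and 9.96 CPM (−4.05 ± 0.20, edgeR adjusted p = 1.4e-10). Both had late libraries within a narrow range and far below the unstressed ones.

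BRX1 (YOL077C), a nucleolar factor of early particles, went from 309, 281 and 268 CPM to 17, 19.6 and 21.3 CPM (−3.89 ± 0.25). NOC2 (YOR206W), which pairs with Mak21 or Noc3 during early assembly and transport of the particle, went from 240, 240 and 275 CPM to 12.8, 22.3 and 20.3 CPM (−3.77 ± 0.22). NOP15 (YNL110C), an ITS2-binding protein, went from 216, 177 and 184 CPM to 13.1, 14.3 and 16.3 CPM (−3.72 ± 0.17). All 3 were called and showed no overlap.

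ARX1 (YDR101C), an export factor at the tunnel exit, went from 183, 217 and 176 CPM to 13.5, 17.3 and 15.3 CPM (−3.64 ± 0.21). NOG2 (YNR053C), a GTPase of nuclear particles, went from 239, 237 and 292 CPM to 15.8, 24.2 and 26.4 CPM (−3.53 ± 0.25), and its count is uncertain because the small nucleolar RNA gene SNR191 lies in it on the same strand. RRP1 (YDR087C), of the Nsa1 module, went from 181, 149 and 207 CPM to 18.2, 18.5 and 18 CPM (−3.29 ± 0.18). These members too showed no overlap between 0 and 30 min.

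At the other end, TIF6 (YPR016C) stood at 338, 310 and 325 CPM before salt, at 382, 381 and 280 CPM after 10 min and at 178, 116 and 170 CPM after 30 min. Its early groups overlapped, and its late libraries lay below all earlier ones (log2 fold change from 0 to 30 min −1.07 ± 0.18, edgeR adjusted p = 9.54e-05). The helicases DBP6 (−1.41 ± 0.23) and SPB4 (−1.46 ± 0.14) and URB2, a factor of early particles (−1.61 ± 0.30), had the next smallest falls. SSF1 has the close paralog SSF2, and reads may be split between them.

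**Figure D2:**
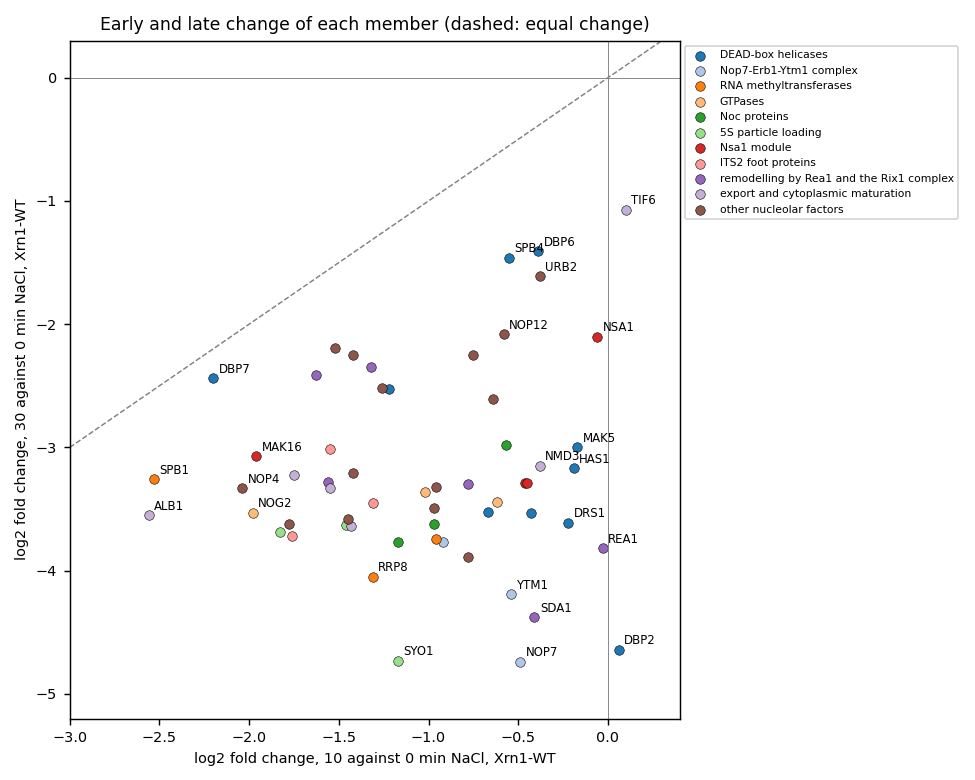
Log2 fold change of each of the 58 members in Xrn1-WT after 10 min (horizontal) and after 30 min (vertical) of NaCl against 0 min, coloured by role, with equal change as a dashed line. All points lie below 0 on the vertical axis, from −4.74 (NOP7) to −1.07 (TIF6), while the early change runs from −2.56 (ALB1) to 0.10 (TIF6).

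From 10 to 30 min, 56 of 58 members were called lower in Xrn1-WT and none higher (25.7% of all features lower and 30.6% higher; median of the members −2.14, of all features 0.08). DBP7 (−0.24 ± 0.21, edgeR adjusted p = 0.358) and RRP14, a nucleolar factor of early particles (−0.67 ± 0.28, edgeR adjusted p = 0.0517), were the ones that did not pass. DBP2 (−4.70 ± 0.24), NOP7 (−4.25 ± 0.20) and SDA1 (−3.97 ± 0.17) fell most in this interval. The members therefore differed in timing, and 46 were called in both intervals. Expressed as the share of the 30 min log2 fall already present at 10 min, the median was 29.6%, with 23 members under 25% and 13 over 50%. The extremes were DBP7 (90.2%), SPB1 (77.4%), ALB1 (72.3%) and RRP14 (69.5%) on the early side, and DBP2 (−1.31%), REA1 (0.858%), NSA1 (3.02%) and MAK5 (5.62%) on the late side, with TIF6 at −9.48%. These shares share the unstressed libraries, depend on the scaling and are given without a test. Under scaling by library size alone the median of all features was −0.50 (10 against 0 min), 0.43 (30 against 0 min) and 0.94 (30 against 10 min), in place of −0.06, 0.01 and 0.08. The member medians were then −1.43, −2.87 and −1.27, in place of −0.97, −3.32 and −2.14. No member was called higher in these 3 comparisons under that scaling.

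With Xrn1 depleted, the members were lowered by salt too. After 10 min in Xrn1-AID, 37 of 58 members were called lower and none higher, where 16.6% of all features were called lower and 19% higher (median of the members −0.84, of all features −0.03). After 30 min all 58 were lower (26.6% of all features, with 27.2% higher; median −2.57, range −4.48 to −1.10, all features 0.01), and a member kept 16.8% of its unstressed level at the median. From 10 to 30 min 55 were called lower (22.1% of all features, with 19.8% higher; median −1.73), the exceptions being DBP7, SPB1 and ALB1.

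In Xrn1-AID, ALB1 (−2.14 ± 0.22), SPB1 (−1.78 ± 0.28) and DBP7 (−1.77 ± 0.21) had the largest called falls at 10 min, and their libraries at 10 min stood at 24.5 to 35.1, 36 to 41.8 and 13.6 to 18 CPM. DBP2 went from 394, 364 and 401 CPM at 0 min through 414, 334 and 323 CPM at 10 min to 18 and 16.7 CPM at 30 min. Its first groups overlapped, and the fall to 30 min was −4.48 ± 0.29 (edgeR adjusted p = 3.88e-09). SYO1 went from 70.5, 54.6 and 54.8 CPM through 19.8, 33.1 and 33.9 CPM to 2.62 and 3.01 CPM (−4.41 ± 0.28 from 0 to 30 min). SDA1 went from 153, 187 and 200 CPM through 108, 99.4 and 95.9 CPM to 10.8 and 11.9 CPM (−3.99 ± 0.21). For both, each time point lay below the one before it without overlap. REA1 ended at 9.46 and 18.6 CPM, a fall of −3.24 ± 0.43 from 10 to 30 min. At 10 min 35 members were called lower in both arms, 13 in Xrn1-WT alone, 2 (DBP3 and HAS1) in Xrn1-AID alone and 8 in neither arm (DBP2, DBP6, DRS1, MAK5, NSA1, REA1, TIF6 and URB2). No member passed the test of the difference between the arms' 10 min responses (0.291% of all features were higher and 0.484% lower in it). In that edgeR comparison 9 members had an unadjusted p under 0.05, beside 1081 of all 6195 features. The DESeq2 Wald test called 1 member. The counts of 13 and 2 therefore do not show that these members responded differently.

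**Figure D3:**
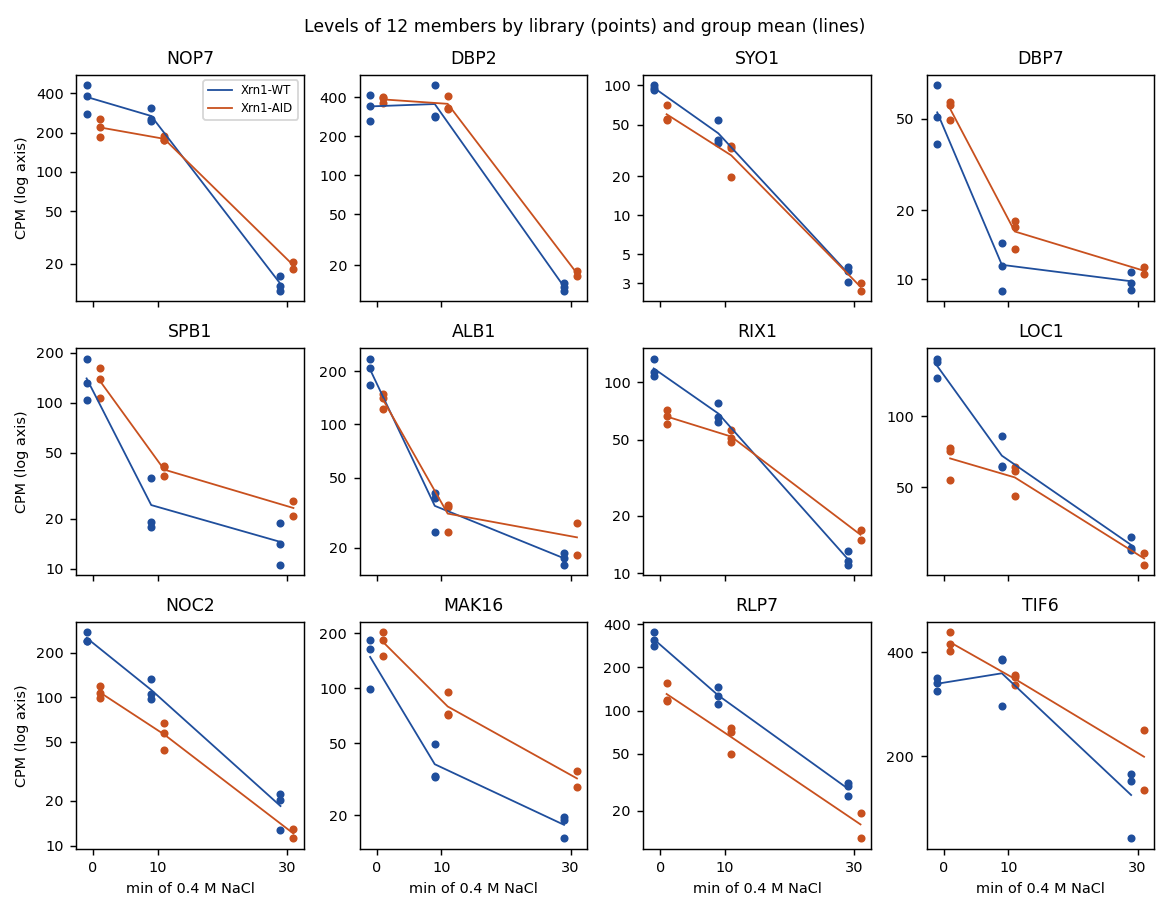
CPM (log axis) of 12 members in every library against minutes in 0.4 M NaCl, with points for libraries and lines through the group means of Xrn1-WT (blue) and Xrn1-AID (orange), shifted sideways for visibility. DBP2 is flat to 10 min and then drops to 12.7 to 18 CPM, whereas DBP7, SPB1 and ALB1 drop mainly before 10 min.

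Comparing the arms at each time asked which members differ once Xrn1 has been depleted. Before salt, 24 of 58 members were lower in Xrn1-AID and none was called higher, where 16.4% of all features were called lower and 16.2% higher (median of the members −0.37, of all features −0.02). LOC1 (YFR001W), which acts in large subunit assembly and in localising ASH1 mRNA, had 170, 145 and 176 CPM with Xrn1 present and 53.7, 71.5 and 73.7 CPM with it depleted (−1.30 ± 0.17, edgeR adjusted p = 7.37e-05). RLP7 (YNL002C), an ITS2-binding relative of ribosomal protein L7, stood at 309, 283 and 351 against 156, 116 and 119 CPM (−1.27 ± 0.19, edgeR adjusted p = 0.000265). NOC2 stood at 240, 240 and 275 against 119, 99.1 and 107 CPM (−1.21 ± 0.20, edgeR adjusted p = 0.000415). In each of the 3 genes every Xrn1-AID library lay below every Xrn1-WT library, as in 1289 of all 6195 features.

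By class, the 3 ITS2 proteins were all lower in Xrn1-AID before salt (median −1.02), as were 7 of 14 other nucleolar factors, 2 of 3 Noc proteins and 2 of 3 5S loading factors, but 1 of 10 helicases (DBP9; class median 0). The count of 24 became 15 when only the 2 compared groups were fitted and 10 with library size alone. It was again 24 with the GC and length correction, 18 of them shared, and there LOC1 was at −0.84 and RLP7 at −0.83. Across the members this difference had a Pearson correlation of 0.28 with log2 coding length. Leaving out 1 library at a time gave 21 to 23 lower members. The 3 comparisons of the arms with time use the same libraries as the time courses above and are not independent of them.

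At 10 min 11 members were lower in Xrn1-AID and 2 higher, beside 10.9% and 17.3% of all features (median of the members −0.18, of all features 0.09). The 11 had all been lower before salt, and NOC2 (−1.0 ± 0.20), RLP7 (−0.96 ± 0.19) and BRX1 (−0.92 ± 0.22) led them. NOC2 had 133, 106 and 97.6 CPM with Xrn1 present and 44, 67 and 57.5 with it depleted, RLP7 had 145, 126 and 111 against 49.7, 75.7 and 70.5, and BRX1 had 187, 168 and 146 against 60.6, 105 and 99.4 CPM. None of these groups overlapped, as for 1220 of all 6195 features on the lower side. MAK16 (YAL025C), of the Nsa1 module, was higher in Xrn1-AID, with 95.4, 70.9 and 71.8 CPM against 49.1, 33.1 and 32.5 CPM (1.05 ± 0.23, edgeR adjusted p = 0.00434). RRP14 was higher too, with 109, 92.2 and 87.3 CPM against 63.7, 48 and 43.1 CPM (0.90 ± 0.28, edgeR adjusted p = 0.026), a call lost without WT 10 replicate 2 (0.88), WT 10 replicate 3 (0.78) or AID 10 replicate 1 (0.80). Library size alone, under which the median of all features was 0.27 in place of 0.09, gave 3 higher and 2 lower members and a member median of 0.00, so the balance of directions at 10 min depends on the scaling. Without WT 10 replicate 1 the lower count was 5, without AID 10 replicate 1 it was 6, and it was 21 with the GC and length correction.

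After 30 min the balance was the other way: 13 members were higher in Xrn1-AID and 2 lower, beside 11.5% and 11% of all features (median of the members 0.34, of all features 0.04). NOG2 stood at 45.4 and 40 CPM in Xrn1-AID against 15.8, 24.2 and 26.4 in Xrn1-WT (0.95 ± 0.25, edgeR adjusted p = 0.0151). DRS1 stood at 20.4 and 25 against 9.74, 13.9 and 11.9 CPM (0.94 ± 0.24, edgeR adjusted p = 0.0115). MAK21 (YDR060W), the early-acting Noc protein, stood at 29.2 and 35.1 against 13.5, 21.1 and 16.8 CPM (0.91 ± 0.25, edgeR adjusted p = 0.0169). All 3 were separated between the arms, as were 1731 of all 6195 features on the higher side. Their calls were lost in 3 (NOG2), 2 (DRS1) and 4 (MAK21) of 14 alternatives.

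The remaining members called higher at 30 min were DBP10, YTM1, NOP2, NOG1, RRS1, MAK16, SDA1, SSF1, EBP2 and NSA2. URB2 went against them, with 5.39 and 6.67 CPM in Xrn1-AID and 11.4, 16 and 14.3 in Xrn1-WT (−1.20 ± 0.36, edgeR adjusted p = 0.0248). The call of URB2 was lost in 6 of 14 alternatives. RLP7 was lower as well, with 19.3 and 12.9 against 25.3, 31.1 and 29.6 CPM (−0.84 ± 0.22, edgeR adjusted p = 0.0145), and was the member called lower at all 3 times. Its call at 30 min was lost without AID 30 replicate 2 (−0.57) and with the GC and length correction (−0.29). MAK16 was higher at both 10 and 30 min, and no member was called both lower at 0 min and higher at 30 min. The count of 13 became 3 without AID 30 replicate 2, 5 without WT 30 replicate 1, 8 without WT 30 replicate 3 and 2 with library size alone. For the 2 lower members, leaving out AID 30 replicate 2 gave 0, WT 30 replicate 2 or 3 gave 1 and WT 30 replicate 1 gave 5. Library size alone put 2 members higher and 1 lower.

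**Figure D4:**
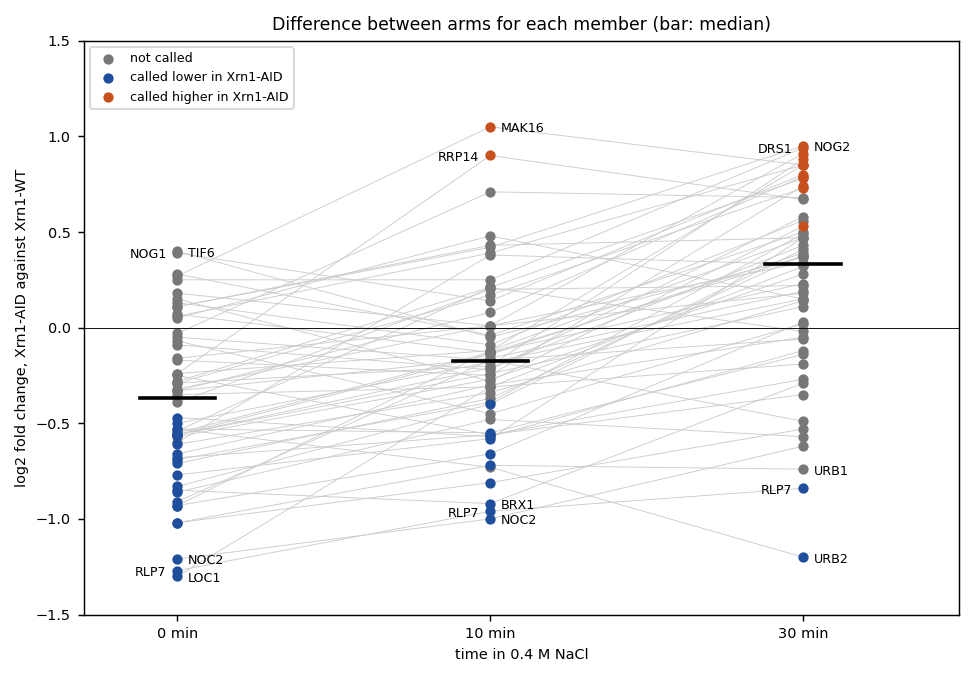
Log2 fold change of Xrn1-AID against Xrn1-WT for each of the 58 members at 0, 10 and 30 min of NaCl, with thin lines joining a member and a bar at the median. The median moves from −0.37 through −0.18 to 0.34, and called members are 24 lower at 0 min and 13 higher at 30 min.

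Whether salt lowered the members less in Xrn1-AID was tested as the difference between the arms' responses, here the log2 fold change from 0 to 30 min in Xrn1-AID minus that in Xrn1-WT. It was above 0, a smaller fall in Xrn1-AID, for 54 of 58 members, with a median of 0.66 against −0.01 over all features. Of all 6195 features, 3065 were above 0. DBP6, MAK5, TIF6 and URB2 were the 4 members below 0. Related lists leaned the same way: the difference was above 0 for all 82 large subunit ribosomal protein genes (median 1.03, 4 called), 51 of 59 small subunit processome genes (0.55, 5 called) and 29 of 34 further large subunit factors (0.51, 2 called). By edgeR, 10 members passed and all were above 0, beside 1% of all features called in that direction and 0.549% in the other. Of the 10, 6 (DBP9, NOP7, RRP8, RRP1, RIX1 and LOC1) were also called lower in Xrn1-AID at 0 min, and the other 4 (YTM1, RRS1, EBP2 and NSA2) were called higher at 30 min.

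RRP8 showed the largest difference (1.40 ± 0.27, edgeR adjusted p = 0.0236): it went from 156, 122 and 163 to 7.76, 8.87 and 9.96 CPM in Xrn1-WT, then from 66.7, 81 and 83.2 to 15.4 and 9.3 CPM in Xrn1-AID. The arms were separated before salt and overlapped after it. EBP2 (YKL172W), a nucleolar factor, went from 359, 361 and 320 to 23, 30.5 and 30.8 CPM in Xrn1-WT, then from 154, 279 and 284 to 44.2 and 52.2 CPM in Xrn1-AID (1.31 ± 0.30, edgeR adjusted p = 0.043). RIX1 (YHR197W), which gives its name to the Rix1 complex of ITS2 processing and remodelling, went from 108, 113 and 133 to 11.1, 13 and 11.6 CPM, and from 60.1, 71.6 and 66.7 to 16.9 and 14.9 CPM (1.25 ± 0.20, edgeR adjusted p = 0.0105). By library values, both EBP2 and RIX1 lay lower in Xrn1-AID before salt and higher after 30 min, without overlap at either time. Between the arms, EBP2 was not called at 0 min and RIX1 was not called at 30 min. Of all 6195 features, 1289 did not overlap on the lower side at 0 min and 1731 on the higher side at 30 min.

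NOP7, the member with the largest fall in Xrn1-WT, started at 184, 221 and 252 CPM and ended at 18.1 and 20.7 CPM in Xrn1-AID (1.24 ± 0.27, edgeR adjusted p = 0.0348). RRS1 (1.17 ± 0.26), LOC1 (1.11 ± 0.24), YTM1 (1.09 ± 0.24), RRP1 (1.09 ± 0.24), NSA2 (1.01 ± 0.24) and DBP9 (0.99 ± 0.23) made up the rest. For the step from 10 to 30 min, 1 member passed, beside 0.646% of all features above 0 and 0.726% below: NOP2 (YNL061W), a methyltransferase of the 25S RNA, which went from 156, 120 and 112 to 16.1, 20.9 and 19.5 CPM in Xrn1-WT and from 111, 107 and 109 to 31.4 and 31.6 CPM in Xrn1-AID (0.99 ± 0.23, edgeR adjusted p = 0.0452).

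These differences rested on the 2 Xrn1-AID libraries at 30 min and on single libraries elsewhere. The count of 10 was 0 without AID 30 replicate 1, 3 without AID 30 replicate 2, 2 without WT 0 replicate 1 or WT 30 replicate 3, and 1 without WT 30 replicate 1, AID 0 replicate 1 or AID 0 replicate 3. It was also 0 with library size alone or with only the compared groups in the fit, and 17 with the DESeq2 Wald test. The GC and length correction gave 16, and across the members the difference had a Pearson correlation of −0.33 with log2 coding length. The single call of NOP2 was 0 without each of 10 libraries and rose to 5 calls without WT 10 replicate 3. RIX1 kept its call in 17 of 20 alternatives, the most of all, and its difference ranged from 1.08 to 1.51. The other called differences were kept less often, from 5 of 20 for NOP2 and NSA2 to 11 of 20 for RRP8.

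**Figure D5:**
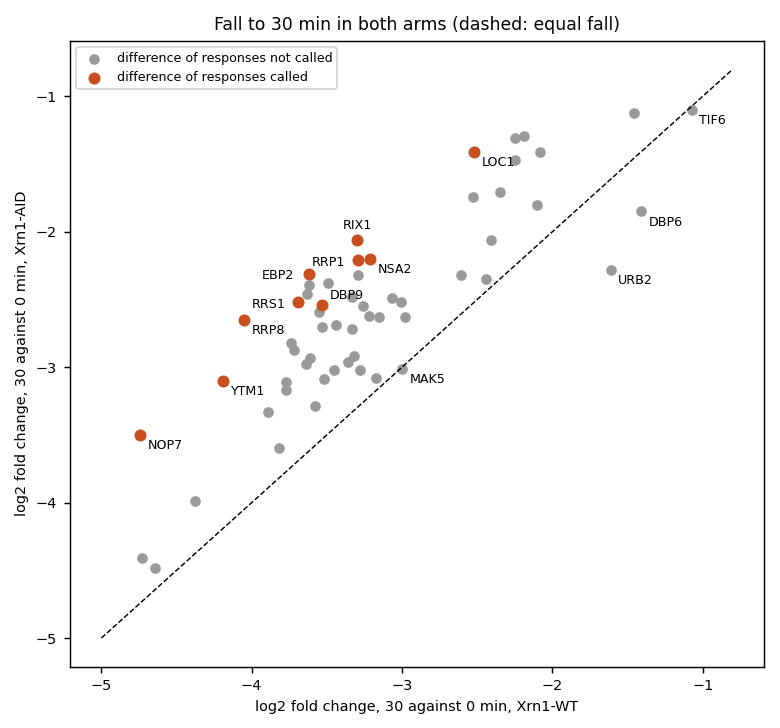
Log2 fold change from 0 to 30 min of NaCl in Xrn1-WT (horizontal) and Xrn1-AID (vertical) for each of the 58 members, with equal fall as a dashed line. Points above the line fell less in Xrn1-AID (54 members), and the 10 members whose difference was called are orange.

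Members with different promoter elements all fell. In Xrn1-WT at 30 min the median log2 fold change was −3.53 for the 25 members with PAC and RRPE, −3.30 for the 17 with RRPE alone, −2.57 for the 12 with PAC alone and −2.61 for the 4 with neither exact motif. At 10 min the medians were −0.96, −1.43, −0.63 and −0.99. The ranges overlapped widely at 30 min (−4.74 to −2.41, −4.73 to −1.07, −4.38 to −1.41 and −3.33 to −1.61), and no test was made. Among the tested protein-coding genes outside the members, 64 of 72 with both motifs were called lower at 30 min (88.9%, median −2.42), 186 of 285 with RRPE alone (65.3%, −0.96), 85 of 121 with PAC alone (70.2%, −1.54) and 1251 of 5224 with neither (23.9%, 0.08). Of the other genes with both motifs, 20 are small subunit processome genes, 4 are polymerase I and III subunit genes and 3 are further large subunit factors.

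Related gene lists moved along, at different times. Of 59 small subunit processome genes, whose products assemble the other subunit, 47 were called lower at 10 min (median −0.94) and 58 at 30 min (−2.87) in Xrn1-WT. Of 19 genes for subunits of RNA polymerases I and III, 12 and 18 were called lower (−0.82 and −1.90). Large subunit ribosomal protein genes, the proteins that the members assemble, had few calls at first: 4 of 82 were lower at 10 min (median 0.11), against 82 of 82 at 30 min (−2.41). PAC was found before 1 of these 82 genes and RRPE before 4. At 30 min in Xrn1-AID 73 of them were called lower (median −1.37).

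Of 34 further large subunit factors, 23 were called lower and 2 higher at 10 min in Xrn1-WT (median −0.70), and 33 lower and 1 higher at 30 min (−2.22). NOP13, a nucleolar RNA-binding protein (−4.14 ± 0.16), MTR4, the helicase of the nuclear exosome (−3.60 ± 0.16), and RRB1, the chaperone of Rpl3 (−3.46 ± 0.15), fell most at 30 min. REH1, a cytoplasmic 60S factor, rose (0.65 ± 0.11, edgeR adjusted p = 0.000105). ARB1, an ABC protein, rose at 10 min (0.54 ± 0.13, edgeR adjusted p = 0.00301).

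The regulators did not move as a block. TOD6, a PAC-binding repressor, stood at 51.8, 66.1 and 42.4 CPM before salt, 58.8, 21.6 and 26.1 after 10 min and 4.62, 5.56 and 6.36 after 30 min in Xrn1-WT. Its fall to 30 min (−3.28 ± 0.31, edgeR adjusted p = 1.52e-07) left its late libraries below all earlier ones. DOT6, its paralog, stood at 63.5, 68.9 and 71.4 CPM and rose to 151, 105 and 127 and then 120, 127 and 125 CPM (0.91 ± 0.16 and 0.87 ± 0.16). STB3, the RRPE-binding repressor, did not pass at 10 min (0.22 ± 0.24, edgeR adjusted p = 0.492) and rose by 30 min (1.18 ± 0.24). SFP1, the activator, stood at 36.8, 56.8 and 20.6 CPM, then at 150, 67.1 and 161 CPM, and then at 55.1, 49.1 and 47.9 CPM, a rise at 10 min (1.73 ± 0.32) that was gone by 30 min (0.41 ± 0.31, edgeR adjusted p = 0.275). In Xrn1-AID before salt, DOT6 (0.91 ± 0.16), SFP1 (0.86 ± 0.31) and STB3 (0.85 ± 0.24) were higher than in Xrn1-WT, and TOD6 did not pass (0.73 ± 0.28, edgeR adjusted p = 0.0556). With Xrn1 depleted, TOD6 fell by 30 min (−3.44 ± 0.37) and SFP1 rose at 10 min (1.27 ± 0.31), but DOT6 did not pass at 10 min (0.34 ± 0.16, edgeR adjusted p = 0.111) or 30 min (0.15 ± 0.18, edgeR adjusted p = 0.495), nor did STB3 at 30 min (0.36 ± 0.26, edgeR adjusted p = 0.261). None of the 4 regulators passed the test of the difference between the arms' 30 min responses (lowest edgeR adjusted p = 0.149).

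The members lay on 15 chromosomes, and 56 had a single coding exon, DBP2 and NOG2 being the ones with an intron. In 9 cases a member neighboured a gene of the other lists. The divergent pair NSA2 and LCP5, a small subunit processome gene, were 301 bases apart and changed by −1.42 and −1.55 at 10 min and by −3.21 and −2.97 at 30 min in Xrn1-WT. DBP2 and its tandem neighbour RPC19, a polymerase subunit gene 439 bases away, did not go together at 10 min: the log2 fold change was −1.90 for RPC19 and 0.06 for DBP2. These pairs were picked after their values were seen.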

How the data were processed

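The deposited file holds raw counts per feature, made by the authors from stranded mRNA libraries read from 1 end over 50 bases, per the labels. The submitters' processing notes name TopHat2 2.1.0, featureCounts 1.5.1, DESeq2 1.22.2 and sacCer3. The strand setting, the treatment of reads with several alignments and the annotation are not given in the sources used here. Library totals ran from 13.9 to 30.4 M, and a count of 0 would allow 3 counts (0.0986 to 0.215 per M of the library total), which covers counting error only.

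Counts were fitted with edgeR 4.0.16 in R 4.3.3 (filterByExpr, TMM, glmQLFit with robust estimation, 1 mean for each of 6 groups). Adjusted p-values are Benjamini-Hochberg over all 6195 tested features in each of the comparisons, called under 0.05, and the SE is the log2 fold change over the root of F. The procedure was tested on simulated data. Alternatives are given in the closing section, with DESeq2 1.42.0 among them. Members were matched to RefSeq R64 by locus tag (58 of 58).

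Any member could be named. Full values went to the 3 called members with the largest change per direction and comparison, to those called against most others and to the leading member of each role class. The members and lists were chosen with earlier results of these data known, and DBP2, DBP7, TIF6 and further members described outside that rule were chosen after their values were seen.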

Additional observations from a re-analysis of the deposited data

Results flagged for a closer look

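For 10 members the response from 0 to 30 min of NaCl differed between the arms by a test of the difference itself (edgeR, adjusted p between 0.0105 and 0.0486). The log2 difference, Xrn1-AID minus Xrn1-WT, was 1.40 for RRP8, 1.31 for EBP2, 1.25 for RIX1, 1.24 for NOP7, 1.17 for RRS1 and 1.11 for LOC1. It was 1.09 for both YTM1 and RRP1, 1.01 for NSA2 and 0.99 for DBP9. From 10 to 30 min the difference was 0.99 for NOP2 (edgeR adjusted p = 0.0452). Every value stands for a smaller fall in Xrn1-AID, and each of these calls was lost when at least 1 library was left out.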

How the results depend on the processing

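The 6 counts of members lowered by salt within an arm stayed within 1.5 times under every alternative run. Within that range, library size alone gave 42 in place of 56 from 10 to 30 min in Xrn1-WT and 38 in place of 55 in Xrn1-AID. With only the compared groups, 48 became 36 at 10 min in Xrn1-WT. Of 50 single-gene results, 32 kept their call in all alternatives, 18 lost it in at least 1, and none was reversed. Counts of members in the comparisons of the arms moved more, and the cause was not tested.

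Before salt, 24 lower members became 15 with only the compared groups and 10 with library size alone, and 0 higher became 0 to 1 when libraries were left out in turn. At 10 min, 11 lower became 2 with library size alone, 21 with the GC and length correction (added after seeing the data, 5774 genes, 93.2% of those tested) and 5 to 11 with libraries left out, and 2 higher became 1 to 3. At 30 min, 13 higher became 2 with library size alone and 3 to 12 with libraries left out. There, 2 lower became 1 with library size alone, 1 with the GC and length correction, 4 with the DESeq2 Wald test and 0 to 5 with libraries left out.

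For the difference of the 10 min responses, 0 higher became 1 with the DESeq2 Wald test and 0 to 1 with libraries left out. For 30 against 0 min, 10 became 0 with library size alone or only the compared groups, 17 with the Wald test, 16 with the GC and length correction and 0 to 12 with libraries left out. For 30 against 10 min, 1 became 5 with DESeq2 size factors or a filter at a mean of 10 CPM, 0 with library size alone or no filter, 2 with only the compared groups, 10 with the Wald test, 18 with the GC and length correction and 0 to 5 with libraries left out. A lone library left in Xrn1-AID at 30 min was assumed to vary like the other groups.

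Same-numbered libraries did not deviate together more often than differently numbered ones, so the numbers were not taken as pairing. The median correlation of deviations was −0.02 for title numbers and −0.06 for description numbers, over 0.1 in 10 of 40 pairs each. For different numbers it was 0.01 and 0.02, over 0.1 in 33 of 80 pairs each. By title numbers, single pairs ran from −0.79 to 0.69 with the same number and from −0.69 to 0.68 with different numbers. With a replicate block from the title or description numbers, the 10 calls for 30 against 0 min became 1 and 1, and the 1 call for 30 against 10 min became 0 and 0. The block from description numbers gave 1 lower member between the arms at 30 min in place of 2.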
